A study of Mus musculus with 8 samples.

Results

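Interferon-stimulated genes are the genes a cell turns on when an interferon binds its surface receptor. A list of 32 such mouse genes was followed here by gene symbol, and 30 of the 32 were found among the 32285 genes of the deposited RNA matrix. Mx1 and Mx2, the remaining pair, were not analysed here. Of the 30, 28 had at least 30 UMIs (unique molecular identifiers, each counting 1 captured RNA molecule) over all nuclei and entered the comparisons per gene. Oas2 had 25 UMIs and Zbp1 had 23, so these members count in sums only.

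The study grew alveolarspheres, which are small balls of lung epithelium, from type II alveolar cells (ATII, the surfactant-producing cells that can renew the alveolar lining) of young and old mice, without serum or feeder cells. The spheres were infected on day 9 with adeno-associated virus serotype 9 carrying either Cre recombinase alone or Sox9 together with Cre, and were then held for 4 days in a medium that drives type II cells towards the flat type I (ATI) fate. Cells with the tdTomato reporter were sorted, and the RNA and the open chromatin (ATAC) of the same nuclei were sequenced. The labels give 8 samples in 4 groups of 2, which are the RNA and the ATAC libraries of the genotype Sox9Cre with Sox9 overexpression and of the Cre control. All spheres had received an AAV9 vector and Cre, and all had been through the differentiation medium. The matrices hold 4 libraries, told apart by the prefix of their barcodes and called A, B, C and D here, but nothing in the labels says which sample, virus or age of mouse a prefix stands for. No comparison of Sox9Cre with Cre, or of young with old, was therefore made, and the pooled matrix counts as 1 sample without a test.

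Type I and type III interferons signal through receptors that activate the kinases JAK1 and TYK2. The signal ends in a complex called ISGF3, which holds STAT2 and IRF9 and binds a short DNA element, the interferon-stimulated response element (ISRE), in front of its target genes. The targets include sensors of foreign RNA, proteins that bind or cut viral RNA, enzymes that make antiviral nucleotides, the ubiquitin-like protein ISG15 and brakes on the signal itself. Lung epithelium answers both kinds of interferon and is an early site of defence against inhaled viruses.

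The response element was looked for in the promoter sequence of the members, since it is where ISGF3 binds. The core of the element, taken as GAAA followed after any 2 bases by GAAA, was searched on both strands with overlapping matches allowed, in RefSeq windows of 300 bases (250 before to 50 after each start, build GRCm38.p6). Of the 30 members, 22 had a window, and 12 of these 22 (54.5%) held the core in at least 1 window. Counted by window it was 13 of 25, against 3.44% of all 32851 windows in the table. In 10 members a match lay before the start, and 7 members had 2 or more matches, those of Trim30a in separate windows. The letters TTCNNNGAA, the core of the element known as GAS, were found in 3 of 22 members (13.6%). By window it was 3 of 25, against 8.3% of all windows. A match is a description of letters and not a site that was shown to be bound. Shown here are 80 bases before the start of 8 members that the later values turn on, 5′ to 3′ along the gene, with every match to the core in capitals.
Ifit1: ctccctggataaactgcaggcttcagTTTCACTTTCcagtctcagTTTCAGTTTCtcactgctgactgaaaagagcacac
Ifit3: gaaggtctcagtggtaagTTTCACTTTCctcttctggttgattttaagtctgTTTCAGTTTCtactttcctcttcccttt
Ifit3b: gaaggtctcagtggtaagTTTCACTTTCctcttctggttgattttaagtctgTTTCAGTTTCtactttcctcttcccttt
Isg15: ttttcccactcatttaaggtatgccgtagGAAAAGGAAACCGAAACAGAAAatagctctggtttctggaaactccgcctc
Oas1a: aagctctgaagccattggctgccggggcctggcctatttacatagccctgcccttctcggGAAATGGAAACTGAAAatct
Rsad2: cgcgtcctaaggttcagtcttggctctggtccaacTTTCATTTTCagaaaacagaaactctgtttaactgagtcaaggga
Bst2: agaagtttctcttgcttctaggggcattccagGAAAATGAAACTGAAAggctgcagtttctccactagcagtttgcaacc
Stat2: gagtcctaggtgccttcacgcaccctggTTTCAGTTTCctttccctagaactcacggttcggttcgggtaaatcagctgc
The Ifit1 stretch is chr19:34640759-34640838 on the plus strand, with its nearest match ending 75 bases before the start. Those of Ifit3 (chr19:34583355-34583434, plus) and Ifit3b (chr19:34607751-34607830, plus) have the same letters, and their whole windows were 75% identical over 268 aligned bases. Both lie inside the outer bounds of their genes, since the annotation also holds transcripts that start further upstream. Isg15 is at chr4:156200846-156200925 on the minus strand with 3 overlapping matches, the nearest 56 bases before the start. Oas1a is at chr5:120907526-120907605 on the minus strand with its nearest match 4 bases before the start. Rsad2 is at chr12:26456528-26456607 and Bst2 at chr8:71537555-71537634, both on the minus strand. Stat2 is at chr10:128270248-128270327 on the plus strand, with its single match 212 bases before the start. Ifit2 had no ISRE core and 1 match to the GAS core, in the window chr19:34550444-34550743. The outer bound of Ifit2 begins inside this window, at 34550550, so the window reaches only partly before it. The missing ISRE core thus holds for the searched bases and not for the whole promoter.

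After a filter on depth and quality, 7184 of 7224 nuclei remained, with 1260, 760, 3236 and 1928 in libraries A to D and a median of 9802 to 11728 UMIs per nucleus. There were 20 barcodes that more than 1 library shared. Sox9 was at 0.0148 and 0.0144 UMIs per 10000 UMIs in libraries A and B, and at 1.08 and 0.941 in C and D. The doublet caller Scrublet marked 15 nuclei (0.208%), too few to count as a working call, so doublets may remain. Nuclei were placed by summed markers into classes that are ranges of a score and not cell types proven by sorting. They comprised 2041 type II nuclei, 1118 type I, 655 transitional (the keratin 8-rich state between both fates), 1324 with type I and transitional markers, 919 type II mixed nuclei that also passed a type I or transitional level, 134 airway secretory, 312 Sox9-high with at least 5 Sox9 UMIs, and 681 below all levels. The labelled type II identity was thus met by 28.4% of nuclei without other markers, and Sftpc stood at 919 UMIs per 10000 in the type II class against 24.1 in the transitional class. Nuclei within 20% of a class boundary numbered 1091 (15.2%) for type I, 979 (13.6%) for transitional and 354 (4.93%) for type II.

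The members together were low in most nuclei and very high in a few. Their summed level was 3.501 UMIs per 10000 (exact Poisson 95% interval 3.46 to 3.54; all intervals here cover counting error only), from 30838 UMIs. Per nucleus the median was 2.54, the middle 50% ran from 1.31 to 4.2, the 99th percentile was 18.1 and the highest nucleus reached 298. No member UMI was seen in 875 nuclei (12.2%). The level was at least 5 in 1291 nuclei, at least 10 in 270 (3.76%, exact binomial interval 3.33 to 4.22), at least 20 in 63, at least 50 in 22 and at least 100 in 7. The distribution had no gap at 10, with 63 nuclei between 9 and 10 and 44 between 10 and 11.

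**Figure D1:**
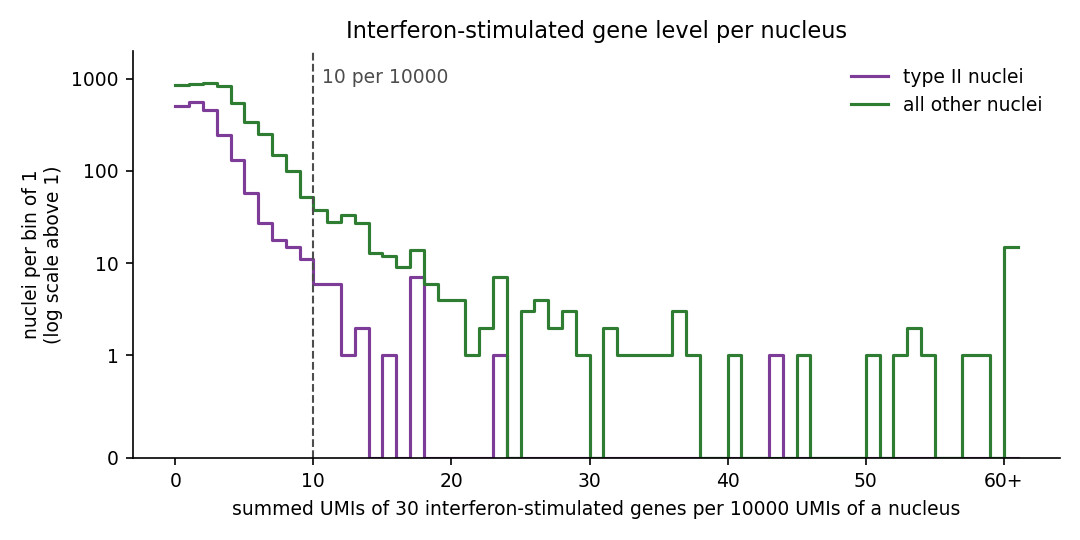
Number of nuclei (vertical axis, logarithmic above 1) at each summed level of the 30 interferon-stimulated genes (UMIs per 10000 UMIs, bins of 1, the last bin holding all nuclei at 60 or more), for type II nuclei and for all other nuclei. Both curves fall smoothly through the dashed line at 10, and the long tail beyond 20 is made almost wholly of nuclei outside the type II class, which has 2 of the 63.

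The 270 nuclei at 10 or more showed many members at a time. They had a median of 8 members detected and 14 member UMIs, against 2 members in the other nuclei, and 1 nucleus held 26 members. Choosing nuclei by the summed level raises these counts by itself, so they only describe the chosen nuclei. They carried 20.6% of all member UMIs, and the level in the remaining nuclei was 2.87. Their depth was somewhat lower, with a median of 9516.5 UMIs against 11164.5, while mitochondrial share (5.59% against 5.78%), doublet score (0.0468 against 0.0569) and ATAC counts in peaks (median 9386 against 9141) were close. In 15 of the 270 the level rested on fewer than 3 member UMIs.

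The 7 nuclei at 100 or more came from libraries A, C and D. The highest, in library A and with type I and transitional markers, had 321 member UMIs among 10754 (298 per 10000) from 26 members. The second, a Sox9-high nucleus of library C, had 211 of 17180 (123 per 10000) with 5 Sox9 UMIs. Another Sox9-high nucleus, in library D, had 180 of 17050 (106 per 10000) with 21 Sox9 UMIs. Of the other 4, 3 had type I and transitional markers (101 to 123 per 10000) and 1 had transitional markers only (113 per 10000). None of the 7 was a type II nucleus.

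All 4 libraries held such nuclei. Library A had 40 (3.17%, interval 2.28 to 4.3), B 19 (2.50%, 1.51 to 3.88), C 141 (4.36%, 3.68 to 5.12) and D 70 (3.63%, 2.84 to 4.57). Library C was highest and B lowest, and the intervals of neighbours in this order overlapped. The summed level was 3.56, 3.16, 3.58 and 3.48 in libraries A to D. Without the nuclei at 10 or more, it was 2.69, 2.81, 2.90 and 2.94, so library A moved from the second place to the last. In library A these nuclei carried 26.5% of the member UMIs, against 13.3% in B.

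Among the regulators of the response, Stat2 and Irf9 were spread over many nuclei, while more of Irf7 and Usp18 lay in few. Stat2, a subunit of ISGF3, was at 0.182, 0.195, 0.211 and 0.173 UMIs per 10000 in libraries A to D, and Irf9, the DNA-binding part of the complex, was at 0.146, 0.138, 0.179 and 0.167. Irf7, the factor that amplifies interferon production, was at 0.0768, 0.0627, 0.0781 and 0.0700. Only 14.5% of Stat2 UMIs and 9.38% of Irf9 UMIs fell in the 270 high nuclei, against 34.1% for Irf7 and 42.5% for Usp18, the protease that removes ISG15 and dampens the receptor. These shares describe nuclei that the members themselves chose.

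The sensors made up much of the baseline. Ddx58, which encodes the viral RNA sensor RIG-I, was at 0.419, 0.420, 0.466 and 0.447 in libraries A to D and was seen in 34.8% of nuclei. Ifih1, which encodes the long double-stranded RNA sensor MDA5, was at 0.324, 0.334, 0.343 and 0.327, a ratio of 1.06 between the highest and lowest library. In contrast, Dhx58, the regulator LGP2 of the same helicase family, had 179 UMIs in all, and Zbp1, a sensor of Z-form nucleic acid, had 23. With Bst2 (the surface protein tetherin that holds budding virions; 0.524, 0.574, 0.550 and 0.601), Parp14 and Parp9 (both of the ADP-ribosyltransferase family), 5 members gave 54.6% of the member UMIs. Levels were not compared per length, so this order tells where the UMIs come from and not which gene is most transcribed.

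The IFIT genes, which encode proteins that bind foreign RNA caps, lie side by side on chromosome 19 between 34550550 and 34650009. Ifit3 was at 0.205, 0.101, 0.159 and 0.144 UMIs per 10000 in libraries A to D and Ifit1 at 0.0731, 0.0175, 0.0540 and 0.0907. Library B was the lowest for both, 5.20-fold under D for Ifit1. Airway nuclei, in which Ifit1 was higher, numbered 67 in D and 0 in B, and their part in this ratio was not tested. Over the 28 members, the ratio of the highest to the lowest library had a median of 1.57 and passed 2 in 9, led by Rsad2 at 5.93. Single nuclei weighed on these values: 1 nucleus of library A gave 38 of the 168 Rsad2 UMIs (22.6%), and single nuclei gave 48 of 558 for Ifit1 (8.60%) and 67 of 1367 for Ifit3 (4.90%).

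To see how far each gene went with the rest, nuclei at 10 or more were chosen again by the other members only, and the left-out gene was then read in them. This gave 205 to 270 nuclei depending on the gene left out. All 28 tested members were at least 2-fold higher there, beside 4.31% of 16500 tested genes in the 270 nuclei chosen by the whole list. The median fold was 11.4, with 15 members at 10-fold or more and 20 at 5-fold or more. Without type II and mixed nuclei, 27 of 28 were still past 2-fold with a median of 9.96, beside 3.06% of genes.

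Rsad2, which encodes viperin, a maker of a chain-terminating nucleotide, had the highest fold over all libraries together. It was at 0.460 UMIs per 10000 in the nuclei chosen by the other members and at 0.0048 elsewhere, a fold of 95.6 (66.8 to 140). Library A gave 59 of its 127 UMIs in those nuclei, and the fold was 282 in A, 69.1 in C and 35.9 in D, with too few UMIs in B for a useful ratio (6 in the chosen nuclei and 2 elsewhere). In A Ifit1 was above it and in D Isg15. Isg15 was at 2.09 against 0.0534, a fold of 39.1 (34.4 to 44.4), with 65.2, 24.3, 33.2 and 39.5 in libraries A to D. The gene was thus over 20-fold higher in each of the 4 libraries. Ifit1 was 35.4-fold higher (29.9 to 41.9), but ran from 13.1 in library D to 782 in A, where 4 of its 99 UMIs lay elsewhere. Oasl2, a ubiquitin-like relative of the RNA-activated 2-5A synthetases, was 33.0-fold higher (27.3 to 39.9), and Ifi44 42.6-fold (30.5 to 59.8). Ifit3 was 22.3-fold higher (20.0 to 24.9), but ranged from 8.62 in library B to 53.7 in A.

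The genes that made up the baseline had the low folds. Bst2 was 5.05-fold higher (4.61 to 5.52), Stat2 4.61-fold, Parp14 4.25-fold, Dtx3l, the E3 ligase that pairs with PARP9, 3.39-fold, Ddx58 3.18-fold, Parp9 3.13-fold and Irf9 2.54-fold (2.06 to 3.09). Ifit2 came last at 2.03 (1.51 to 2.68), unlike its 3 neighbours at 18.4 to 35.4. Leaving out type II and mixed nuclei brought Ifit2 to 1.63, under the 2-fold mark. The share of a gene's UMIs in the 270 nuclei followed a similar order, from 81.0% for Rsad2, 61.1% for Isg15 and 60.8% for Ifit1 to 7.32% for Ifit2. It passed 50% in 6 members and was under 12% in 6.

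**Figure D2:**
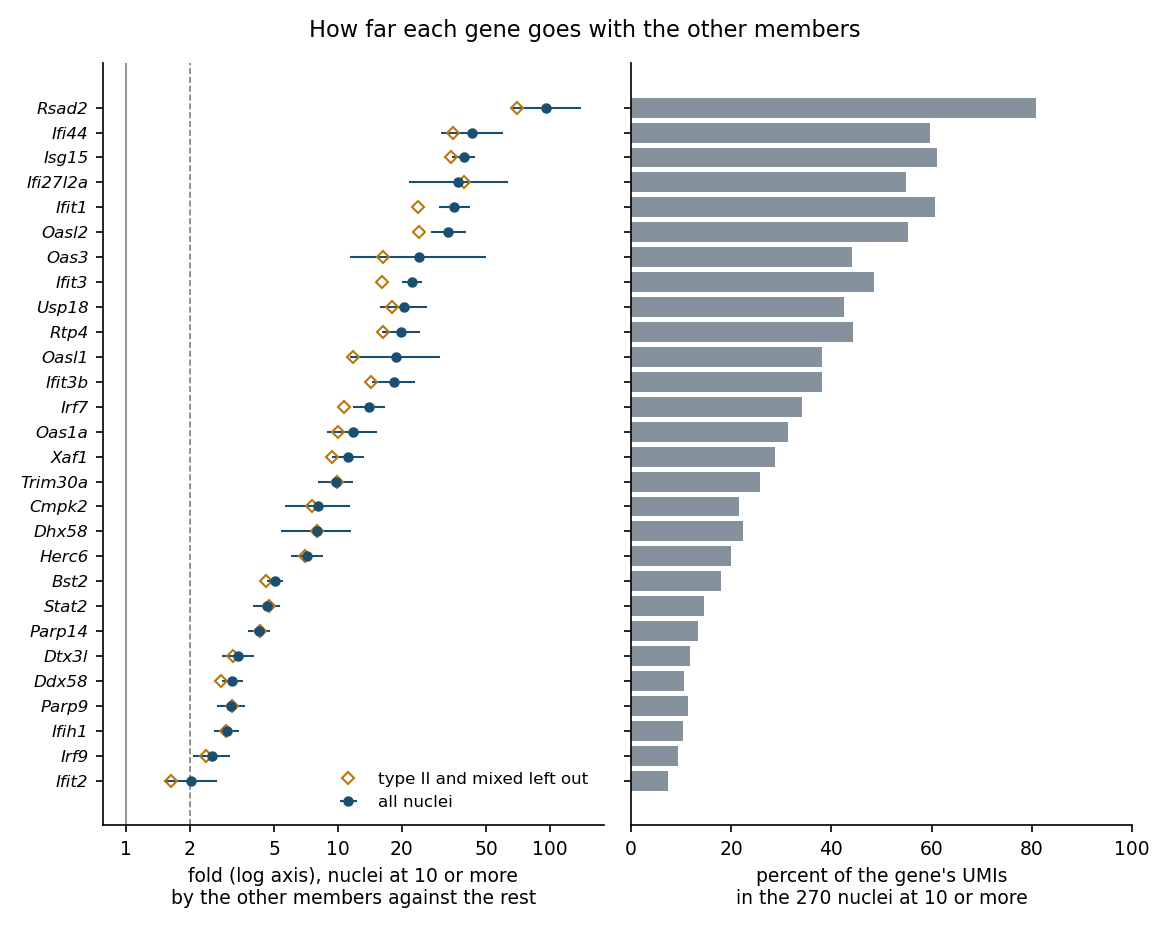
Left, for each of 28 members, the fold (logarithmic axis) between nuclei at 10 or more by the other members and all other nuclei, with exact 95% counting intervals, and diamonds for the same fold without type II and mixed nuclei. Right, the percent of each gene's UMIs in the 270 nuclei at 10 or more by all members. Folds run from 95.6 for Rsad2 to 2.03 for Ifit2, and the dashed line marks 2-fold.

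Type II nuclei had the lowest members' level of any class. It was 2.32 UMIs per 10000 (2.27 to 2.38) against 4.03 in all other nuclei, a fold of 0.577 (0.561 to 0.593). The level was 2.17, 2.17, 2.45 and 2.23 in libraries A to D, and the fold 0.526, 0.609, 0.592 and 0.559, so each library showed it. Nuclei at 10 or more numbered 25 of 2041 (1.22%, 0.794 to 1.80), of which 2 were at 20 or more and none at 50. Type II nuclei spend a large share of their UMIs on surfactant genes, and with the type II marker UMIs left out of every nucleus's total the fold was 0.646. With the nuclei at 10 or more left out it was 0.692.

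The difference was uneven between members. In type II nuclei 15 of 28 were at least 2-fold lower and none higher, beside 14.6% of all genes lower and 4.21% higher. The median fold of the members was 0.363. All 4 IFIT genes were among the 15. Ifit3 was at 0.0103 in type II nuclei against 0.22 elsewhere, a fold of 0.047 (0.031 to 0.068). By library, Ifit3 in type II nuclei was 0.00515, 0.00703, 0.0143 and 0.00691, all far under the level of any library as a whole. Ifit2 was at 0.0125 against 0.138, a fold of 0.090 (0.062 to 0.127), and here it moved with its neighbours Ifit3b (0.101) and Ifit1 (0.113). The others of the 15 were Rsad2, Oasl1, Oas3, Oasl2, Isg15, Usp18, Xaf1, Ifi44, Irf7, Rtp4 and Oas1a, with folds of 0.083 to 0.370.

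Stat2, Irf9 and Ifih1 differed much less than Irf7 and Usp18, which were among the 15. Stat2 was at 0.206 in type II nuclei and 0.188 elsewhere, a fold of 1.09 (0.986 to 1.21), and Irf9 had a fold of 0.899 (0.801 to 1.01). Parp9 (0.820), Ifih1 (0.812) and Parp14 (0.786) were slightly lower, and Bst2 (0.631) and Ddx58 (0.549) were closer to the 2-fold mark. Without the nuclei at 10 or more, 12 of 26 members were at least 2-fold lower, beside 14.4% of genes, so the low type II values did not come from those nuclei alone.

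**Figure D3:**
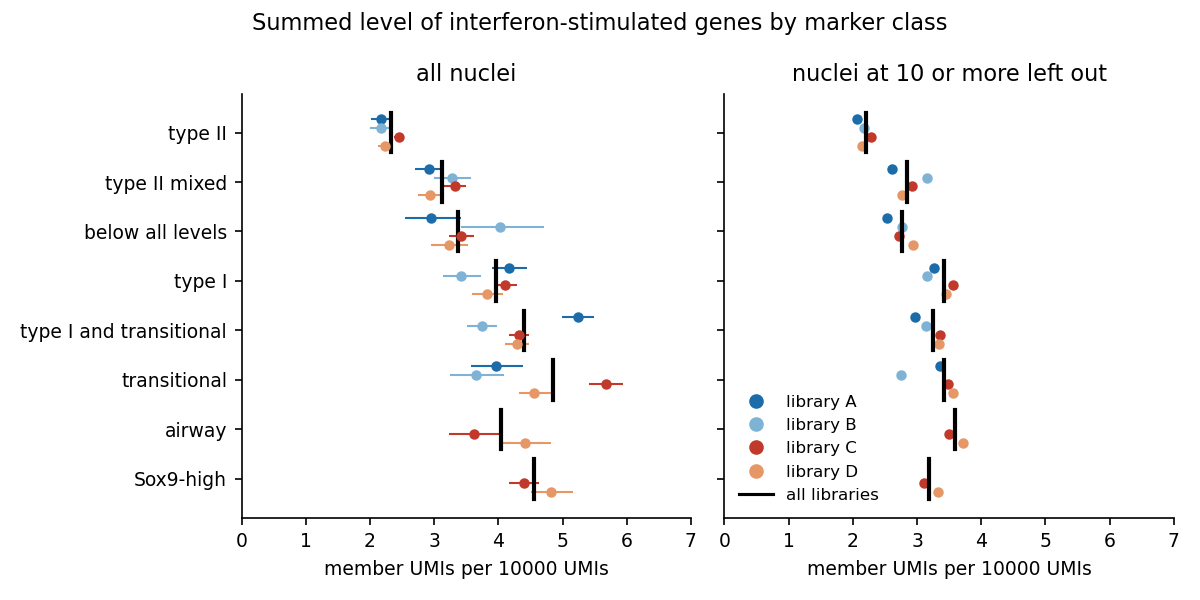
Summed level of the interferon-stimulated genes (UMIs per 10000 UMIs) in each marker class and library, with exact 95% Poisson intervals on the left, and with nuclei at 10 or more left out on the right, without intervals. Groups under 20 nuclei are not drawn and black bars give all libraries. Type II nuclei stand lowest at 2.32, and the spread between libraries narrows in the classes other than type II mixed when the high nuclei are left out.

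Type I nuclei and nuclei with both type I and transitional markers were above all other nuclei, which include the type II class at 2.32. Nuclei outside the type II class, these classes included, were at 4.03. The type I level was not above that value, while the type I and transitional level was. The type I class was at 3.96 (3.84 to 4.08), 1.15-fold the other nuclei, with 4.16, 3.42, 4.11 and 3.83 in libraries A to D, and 51 of 1118 nuclei (4.56%) at 10 or more. The type I and transitional class was at 4.41 (4.31 to 4.51), a fold of 1.34, with 5.24, 3.74, 4.32 and 4.29 by library and 66 of 1324 nuclei (4.98%) at 10 or more. The high value of library A came in part from 1 nucleus with 18.2% of the class's member UMIs there, and without the nuclei at 10 or more library A was at 2.97. Of 28 members, 2 were at least 2-fold higher in type I nuclei, beside 3.3% of genes, and 3 lower, beside 7.64%. In the type I and transitional class 5 were higher, beside 2.59%, and 0 lower, beside 11.8%. Without the nuclei at 10 or more, 3 of 26 members were higher in type I nuclei, beside 3.27%, and 1 lower, beside 7.57%. In the type I and transitional class it was then 2 higher, beside 2.73%, and 2 lower, beside 11.7%.

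Ifit2 and Ifit3b were the members at least 2-fold higher in type I nuclei. Ifit2 was at 0.201 in type I nuclei (2.38-fold, 2.04 to 2.78) and at 0.190 in the type I and transitional class (2.47-fold, 2.15 to 2.84), with 0.0758 in transitional and 0.0125 in type II nuclei. The type I fold by library was 2.00, 2.52, 2.79 and 1.84. These UMIs lay in 165 type I nuclei with at most 8 in any, and the fold without the nuclei at 10 or more was 2.38 as well. Ifit3b was 2.91-fold higher in type I nuclei (2.27 to 3.71), from 95 UMIs. In the type I and transitional class Ifit3 was 2.75-fold higher (2.47 to 3.07) and Isg15 2.28-fold, but Isg15 was 1.47-fold higher once the nuclei at 10 or more were left out. Rsad2, 3.46-fold higher in that class, had 38 of its 77 UMIs there in 1 nucleus, and without the nuclei at 10 or more its fold was 0.433.

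Transitional nuclei, pooled over libraries, had the largest share of high nuclei. Their level was 4.85 (4.69 to 5.0), a fold of 1.44 (1.39 to 1.49), and 53 of 655 nuclei (8.09%, 6.12 to 10.5) were at 10 or more, 18 of them at 20 or more. The libraries differed, with 3.97, 3.65, 5.68 and 4.56 in A to D and folds of 1.13, 1.17, 1.67 and 1.36. The share of transitional nuclei at 10 or more was 4.26%, 5.71%, 10.8% and 7.17% in A to D. In A it was below that of type I and transitional (4.78%), below all levels (4.71%) and type I nuclei (4.47%). Without the nuclei at 10 or more the level was 3.42, the same as in type I nuclei to 3 digits. In transitional nuclei 10 of 28 members were at least 2-fold higher, beside 10.5% of all genes, and 0 lower, beside 5.56%. Without the nuclei at 10 or more, 6 of 26 were higher, beside 10.7%, and 1 lower, beside 5.62%. Ciliated markers were also higher in this class (10 of 10 tested, summed level 2.46 against 0.496), as were 3 of 4 tested fibroblast and mesenchymal markers (1.46 against 0.560). Markers of other cells were higher as well, with 2 of 3 basal (0.0976 against 0.0323), 2 of 3 endothelial (0.127 against 0.0534), 4 of 8 cell cycle (1.20 against 0.739), 1 of 3 lymphocyte and plasmacytoid dendritic (0.130 against 0.0705) and the 1 tested neutrophil marker (S100a9, 0.0591 from 9 nuclei in all classes). Of 6 macrophage markers 3 were higher and 1 lower (0.551 against 0.696). The part of these cells in the result was not tested.

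Oasl1, a synthetase relative that restrains Irf7 translation, was the transitional member with the highest fold. It was at 0.0437 in transitional nuclei against 0.00523 elsewhere, a fold of 8.35 (5.15 to 13.4), from 34 UMIs in 18 nuclei. Its fold without the nuclei at 10 or more was 8.77, and by library it was 14.6 in C and 2.94 in D. Usp18 was 3.25-fold higher (2.40 to 4.34) and Rtp4, a chaperone of receptors, 2.54-fold (1.96 to 3.26), both also past 2-fold without the high nuclei. Oasl2 was 2.48-fold higher with them and 1.47-fold without. Ifi27l2a, a small membrane protein, was 5.29-fold higher, but 18 of its 21 UMIs there came from 1 nucleus.

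Airway secretory nuclei, 64 in library C, 67 in D, 3 in A and none in B, had a pattern of their own within the IFIT genes. Ifit1 was at 0.422 UMIs per 10000 there against 0.0547 elsewhere, a fold of 7.73 (6.08 to 9.72), from 88 UMIs in 30 nuclei with at most 14 in any. It was 3.49-fold higher in C and 9.59-fold in D, and 16.5-fold higher over all libraries without the nuclei at 10 or more. Ifit3, its neighbour on chromosome 19, was at 0.0288 against 0.158, a fold of 0.182 (0.067 to 0.397) from 6 UMIs, and Ifit2 was at 0.0480, a fold of 0.478 (0.228 to 0.882). Thus the IFIT genes did not move together in this class.

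Ifi44, of unsettled function, was 6.30-fold higher in airway nuclei (3.73 to 10.1; 20 UMIs in 17 nuclei), Cmpk2, the mitochondrial nucleotide kinase beside Rsad2 on chromosome 12, 3.02-fold (1.62 to 5.20) and Oas1a, a 2-5A synthetase, 2.66-fold (1.52 to 4.34). In all 6 of 28 members were at least 2-fold higher, beside 10.7% of genes, and 3 lower, beside 8.39%. The summed level was 4.04 (3.78 to 4.33), a fold of 1.16 over all libraries, 1.01 in library C and 1.29 in D. The other nuclei in this fold include the type II class, and nuclei outside type II were at 4.03. Without the nuclei at 10 or more, 8 of 26 members were higher, beside 10.7%, and 2 lower, beside 8.36%. In this class all 10 ciliated markers were higher too (6.69 against 0.523), as were 3 of 4 tested fibroblast and mesenchymal markers (5.22 against 0.528, mostly Msln at 5.03), 6 of 8 cell cycle markers (1.07 against 0.773) and 1 of 3 basal markers (0.465 against 0.0277). Their part in the result was not tested. The macrophage list stood at 15.5 against 0.325. Nearly all of this was Lyz1 at 15.4, while 14 of its 18 genes, the leukocyte marker Ptprc among them, were at 0 in airway nuclei.

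**Figure D4:**
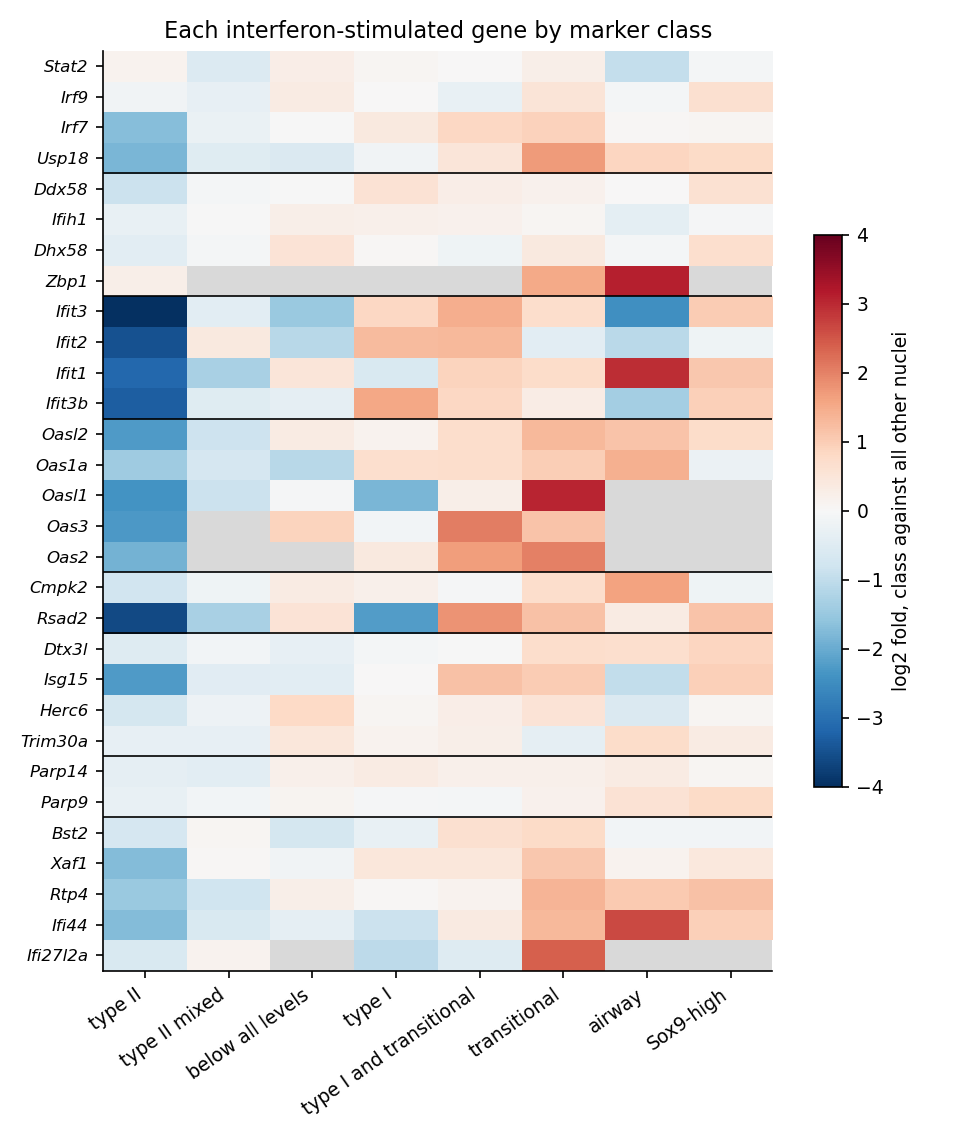
log2 fold of each interferon-stimulated gene between a marker class and all other nuclei, grouped by role, with the colour capped at 4 in both directions and grey where fewer than 4 UMIs gave no call. The type II column is blue for the IFIT and synthetase genes and near white for Stat2 and Irf9, and in the airway column Ifit1 is red while Ifit3 is blue.

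Type II mixed nuclei were at 3.12 (fold 0.877), with 0 of 28 members 2-fold higher, beside 0.739% of genes, and 2 lower, beside 9.58%. Nuclei below all marker levels were at 3.37 (fold 0.959), with 0 higher, beside 7.88%, and 3 lower, beside 2.15%. Pooled over libraries, the order of the summed levels ran from type II through type II mixed, below all levels, type I, airway, type I and transitional and Sox9-high to transitional. Of neighbours in this order, type II against type II mixed, and below all levels against type I, had intervals that did not overlap, and the other neighbours did not differ beyond their intervals. The order above type II was not the same in each library, and Sox9-high and airway nuclei lay almost wholly in C and D. The highest class of at least 20 nuclei was type I and transitional in A (5.24, with transitional at 3.97), below all levels in B (4.03, with transitional at 3.65), transitional in C (5.68) and Sox9-high in D (4.83, with transitional at 4.56). Type II was the lowest of these classes in each of the 4 libraries. When each nucleus was thinned to 1000 UMIs, a member UMI was seen in 20.1% of type II nuclei (18.3 to 21.9) and in 30.9% of type I (28.2 to 33.7). Without thinning these shares were 86.6% and 89.4%. They describe depth-matched detection, since 1 UMI in a thinned nucleus already equals a level of 10.

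Nuclei with much Sox9 RNA did not stand apart clearly from the nuclei without Sox9 that they were set against. Sox9-high nuclei were at 4.55 (4.36 to 4.75), with 17 of 312 (5.45%, 3.21 to 8.58) at 10 or more. They lay in library C (197), in D (114) and, for 1 nucleus, in A. The reference was the nuclei without Sox9 UMIs in the same library, with type II and type II mixed nuclei left out. Sox9-high nuclei with type II markers stayed in (summed type II marker level of the class 314), so the sides were not chosen alike. The level was 4.39 against 4.43 in library C, a ratio of 0.991 (0.933 to 1.05). In library D it was 4.83 against 4.12, a ratio of 1.17 (1.09 to 1.26). Without the nuclei at 10 or more the ratios were 0.939 and 0.979, so the excess in library D was no longer seen. The highest nucleus of library D gave 21.0% of the class's member UMIs there.

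Read from the other side, Sox9 itself was higher in nuclei at 10 or more in library C. It was at 1.48 against 1.06 UMIs per 10000 in library C (1.39-fold, 1.20 to 1.60) and at 1.09 against 0.936 in D (1.17-fold, 0.931 to 1.45), where the interval spans 1. Type II nuclei stayed in this comparison, unlike in the one before. They were 9.26% of the nuclei at 10 or more and 28.4% of all nuclei, and their part in the fold was not tested. Among the members, 4 of 28 were at least 2-fold higher in Sox9-high nuclei, beside 7.01% of genes, and 0 lower, beside 4.52%. These were Rtp4 (2.26), Rsad2 (2.22), Ifit1 (2.10) and Ifit3 (2.02). Without the nuclei at 10 or more, 1 of 26 was higher, beside 6.9%, and 3 were lower, beside 4.48%. Of the 4, Rtp4 alone was past 2-fold without the nuclei at 10 or more (3.08), and Ifit3 was at 1.07.

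Genes of the interferon pathway outside the list were read in the 270 nuclei at 10 or more, which those genes had no part in choosing. Messages for interferons were nearly absent in all nuclei: 15 of 18 ligand genes had no UMI anywhere, and only Ifnk, a keratinocyte interferon, had enough to test, with 83 UMIs of which 1 lay in a high nucleus. The receptor genes were all detected, and none of the 6 passed 2-fold (1.11 to 1.74). Ifnlr1, the type III receptor chain typical of epithelium, was at 0.609 in the high nuclei and 0.386 elsewhere. Nlrc5, the activator of MHC class I genes, was 7.74-fold higher (5.25 to 11.2), while the receptor-bound kinases Jak1 (1.12) and Tyk2 (1.07) did not pass 2-fold.

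Target genes of interferon that are not on the list were mostly higher as well. The counts of these and the marker lists stand beside the same 4.31% of all tested genes higher in the high nuclei, and 2.48% lower. Of 39 tested antiviral genes, 25 were at least 2-fold higher with a median of 2.44, led by Apol9b (80-fold, 40 UMIs in all), Ddx60 (38.9-fold) and Oas1g (24.9-fold). All 10 tested GTPase genes that interferon gamma also induces were higher, with a median of 6.75, among them Iigp1 at 14.4-fold (10.7 to 19.2). Of the MHC class I and peptide handling genes 10 of 15 were higher, including B2m, the invariant light chain, at 6.83 against 2.30 (2.97-fold) and the peptide transporter Tap1 (2.86-fold). Of the list of negative regulators 3 of 9 were higher, namely Ube2l6, the conjugating enzyme for ISG15 (5.09-fold), Adar, an RNA editor (2.50-fold), and Isg20, an RNA exonuclease (2.41-fold). Of 11 tested NF-kB targets 1 was higher (Tnfaip3, 2.74-fold) and 1 lower (Csf2, 0.434, from 3 UMIs), and of 11 sensors and adaptors 1 was higher (Trim25, 2.49-fold), counts too small to set apart from the background. Cxcl10, a chemokine, was 22.6-fold higher but was seen in 2.59% of the high nuclei.

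Over all genes seen in at least 20% of the high nuclei, those with the highest folds outside the list included Ifitm3 (7.48), Trim30d (6.82), Phf11d (6.42), Lgals3bp (5.59), Sp100 (5.42), Rnf213 (4.62), Lgals9 (3.87), Trim34a (3.81), Fn1 (3.80), Irgm1 (3.79) and A930037H05Rik (3.50). Trim34a, Fn1 and A930037H05Rik stood on none of the pathway lists. Fn1, a matrix protein, was the least even of them, from 0.457 to 5.07 by library. Type II markers were lower in the high nuclei, 13 of 20 at least 2-fold (summed level 191 against 576). Transitional markers were higher for 4 of 20 (148 against 96.8). Fibroblast and mesenchymal markers were higher for 2 of 4 tested (1.73 against 0.604, mostly Msln at 1.68), and their part in the result was not tested. Immune cell markers were low: the macrophage list was at 0.680 against 0.683 with 10 of 18 genes at 0, and Ptprc had no UMI in the high nuclei. The lymphocyte and plasmacytoid dendritic list was at 0.135 against 0.0738, with 10 of 13 genes at 0. Of those tested, Cd68 (2.21-fold) and Bst1 (3.77-fold) were at least 2-fold higher.

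Open chromatin over the members was only slightly higher in the same nuclei. ATAC counts of all peaks touching a gene or its flanks of 2 kb were added up and given per 10000 counts in peaks. Of 30 members 28 had a peak, Oas2 and Oas3 having none. In the 270 nuclei 9 of the 28 were at least 25% higher, beside 6.94% of 19697 genes, and 1 was at least 20% lower, beside 8.88%. The median fold was 1.15, against 0.987 over all genes, and 22 of 28 were above 1, against 45.8% of all genes. In libraries C and D, which held most of the counts, 23 of 27 and 20 of 27 members with at least 5 counts in the high nuclei were above 1. Zbp1 fell below 5 counts in both, with folds of 0.906 and 0.795. This filter favours members with more counts in the high nuclei. No share over all genes by library stands beside these counts, so they only describe the members.

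Ifit3 had the highest fold. It was at 0.2 counts per 10000 in the high nuclei against 0.114 elsewhere, a fold of 1.75 (1.31 to 2.30). This rests on 55 counts in the high nuclei. The folds were 2.86, 1.5, 1.56 and 1.58 in libraries A to D, on 13, 3, 20 and 19 counts there. Its promoter peak, chr19:34582861-34583737, which contains the Ifit3 stretch shown with its ISRE cores, was 2.44-fold higher (1.37 to 4.07) on 16 counts. Oasl1 was 1.63-fold higher (1.22 to 2.15), and its promoter peak at chr5:114922888-114923834 was 1.75-fold higher (1.24 to 2.42). Ifi27l2a (1.53, 1.18 to 1.94), Xaf1, a pro-apoptotic gene (1.46, 1.1 to 1.91), Irf7 (1.41, 1.16 to 1.70) and Rtp4 (1.32, 1.04 to 1.64) also had intervals above 1. The window of Ifi27l2a overlaps Ifi27 and that of Rtp4 overlaps Masp1. Ifit1 (1.36, 0.875 to 2.04), Oas1a (1.37) and Ifi44 (1.31) passed the mark with intervals that span 1, and Zbp1 was lower on 5 counts.

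A large RNA fold did not always come with a large ATAC fold. Isg15, 39.1-fold higher in RNA, was at 0.792 against 0.720 ATAC counts per 10000 (1.1, 0.957 to 1.26), and Rsad2 was at 1.21 (0.884 to 1.61). In the 63 nuclei at 20 or more, 15 of 28 members were at least 25% higher, beside 12.3% of genes, and 0 were lower, beside 17.2%, with a median of 1.31 and 27 of 28 above 1. Peaks that overlap the promoter windows were higher in 10 of 20 cases, with a median fold of 1.23. Those of Ifit3, Irf7, Oasl1 and Xaf1 had intervals above 1, and the others of the 10 had intervals that span 1. No share of promoter peaks over all genes stands beside this count, so it shows no enrichment. Over all 71 member peaks tested 22 (31.0%) were higher, beside 22.3% of 110552 peaks.

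In type II nuclei, where the IFIT genes were lowest in RNA, 3 of them also had less open chromatin. Ifit2 was at 0.579 against 0.790 (0.733, 0.689 to 0.779), with 0.778, 0.752, 0.731 and 0.714 in libraries A to D. Ifit3 was at 0.0923 against 0.127 (0.725, 0.619 to 0.845) and Ifit3b at 0.725 as well (0.627 to 0.835). With Oas1a and Xaf1, 5 of 28 members were at least 20% lower, beside 9.94% of genes, and 0 were at least 25% higher, beside 6.03%. The other 23 lay between, Isg15 at 1.04 with its flanking peak included and Usp18 at 1.03, although both were over 3-fold lower in RNA. In airway nuclei 9 members were higher, beside 15.4%, and 2 lower, beside 19%. Oas1a was 2.55-fold higher there (1.34 to 4.43), and Ifit1 1.69-fold (0.979 to 2.74). In Sox9-high nuclei 0 of 28 members were higher and 2 lower, with no share over all genes beside these counts. The Ifit3 fold was 0.582 in that class, on 34 counts with an interval up to 0.819, while its RNA was 2.02-fold higher. Without the nuclei at 10 or more this RNA fold was 1.07. In transitional and in type I and transitional nuclei both Ifit3 folds were above 1 (ATAC 1.33 and 1.59, RNA 1.64 and 2.75).

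**Figure D5:**
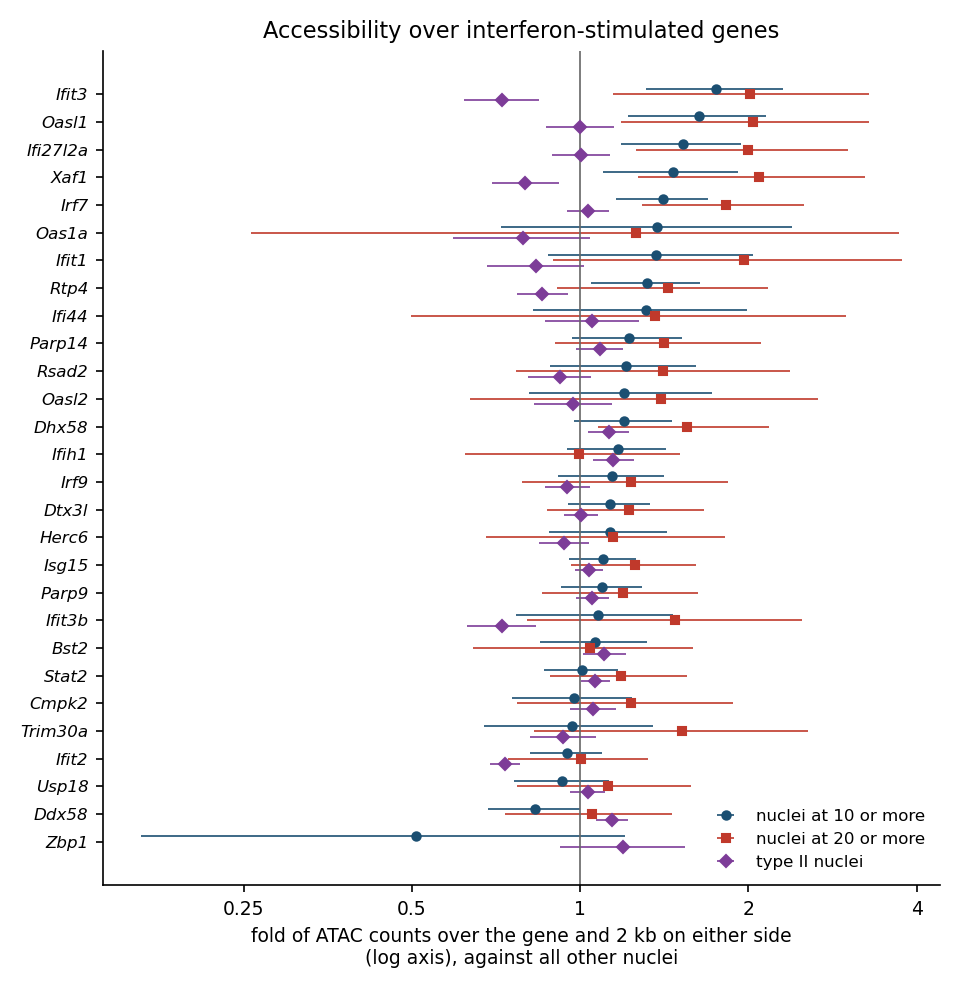
Fold of ATAC counts over each interferon-stimulated gene and 2 kb on either side (logarithmic axis, exact 95% counting intervals) for nuclei at 10 or more, nuclei at 20 or more and type II nuclei, each against all other nuclei, with points under 3 counts not drawn. The circles stand right of 1 for 22 of 28 genes, and the type II diamonds of Ifit3, Ifit3b and Ifit2 stand left of 1.

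Some members cannot be fully told from a relative or neighbour. Ifit3 and Ifit3b are near copies, and Oas1a has close copies such as Oas1g, so reads may have been assigned to either or dropped. Parp9 and Dtx3l overlap and share a promoter peak, and so their ATAC values are not independent. Ifi27l2a overlaps Ifi27.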

How the data were processed

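The authors deposited 1 matrix of UMI counts per gene and 1 matrix of ATAC counts per peak (116068 peaks, median width 906 bases), both unnormalised and pooled over 4 libraries. The submitters' processing notes name the builds GRCm38 and mm10 and the tools Signac 1.10.0, Seurat 4.3.0 and Cell Ranger 6.0.1. Not given in the sources used here are the peak caller, the filter on nuclei and the use of strand in counting. Deposited lists of multiplexing oligos were not used.

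Kept were nuclei of 500 or more UMIs and 300 or more genes whose mitochondrial share was below 20% (25 removed), and Scrublet calls were left out (15 removed). Levels are UMIs summed over nuclei per 10000 UMIs, with exact Poisson 95% intervals. Folds are ratios of such levels with exact conditional binomial intervals and counts below 3 set to 3, and shares have Clopper-Pearson intervals. A gene with at least 30 UMIs was called at 2-fold, and with peaks over the gene and 2 kb on either side at 25% higher or 20% lower. Class boundaries on summed markers per 10000 UMIs were 300 for type II and 100 for type I, transitional and airway, and 5 Sox9 UMIs for Sox9-high. The airway class took precedence, then Sox9-high. These boundaries were set after their distributions were seen, and the members and lists were chosen with earlier results of these data known. Of the 32285 genes, 26296 (81.4%) had a RefSeq position in GRCm38.p6.

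Values by class and library are given for members with the most UMIs (up to 12) and those that differ most between classes. Named outside the list are up to 12 genes with the highest fold among those seen in at least 20% of the high nuclei, up to 4 genes per pathway list, Sox9 and markers. Some results are not reported here. Counting error is the sole error the intervals cover, and the spread between cultures or animals could not be read. The scripts were tested on simulated data. Python 3.11.15, numpy 2.4.6, pandas 2.3.3, scipy 1.17.1, scanpy 1.11.5, anndata 0.12.19 and matplotlib 3.10.9 were used.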

Additional observations from a re-analysis of the deposited data

How the results depend on the processing

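No paired analysis was possible because the barcode prefixes carry no replicate number of the labels. No direction of a class fold reversed in any alternative run. No run of the class folds left type II nuclei out of the nuclei that the other classes were set against. Of the alternative values, 30 moved by more than the interval or the 1.5 times allowed for a count and 60 did not. The 270 nuclei at 10 or more became 1291 at 5 or more, 63 at 20 or more and 205 without Bst2, the member with the most UMIs; with each library left out they numbered 129 (without C) to 251 (without B). The class folds with a library left out were 0.559 to 0.586 for type II, 1.14 to 1.17 for type I, 1.28 to 1.49 for transitional, 1.02 to 1.28 for airway and 1.27 to 1.42 for Sox9-high nuclei. The airway value without library D was 1.02, with an interval (0.911 to 1.14) that spans 1. Without nuclei at 10 or more the folds were 0.692, 1.23, 1.21, 1.26 and 1.12 for the same classes in that order. With type II marker UMIs left out of the total, an alternative chosen after seeing the data, they were 0.646, 1.09 and 1.36 for type II, type I and transitional. Thinning to 1000 UMIs gave 1.21 for type I, 1.34 for transitional and 1.35 for airway, leaving out Bst2 gave 1.22 for type I, 1.39 for transitional and 1.401 for Sox9-high, and placing nuclei by the highest marker score gave 0.597 for type II. The 15 members lower in type II nuclei became 9 after thinning, where fewer genes had enough UMIs, and 14 to 15 with a library left out. The 9 members with more open chromatin became 2 at 5 or more, 15 at 20 or more, 3 at a fold of 1.5, and 7 to 11 with a library left out. Counts of ATAC also limit the last result, since several members had under 30 counts in the high nuclei.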
